A study of Homo sapiens with 80 samples.

Results

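The step from day 4 to day 6 was examined in a WTC11 differentiation that ended with a high share of cardiomyocytes. Its members were the 4 day 4 wells and the 4 day 6 wells of the high purity class in the multi-omic experiment, chosen by their labels, and make up 8 of the 80 libraries of the series. Genes entered the comparison when they reached at least 1 TPM (a level corrected for transcript length and library size) in 3 or more of these wells. That left 19611 genes.

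WTC11 is a human induced pluripotent stem cell line. All 8 wells were of passage 52 and of a single differentiation, so p-values here measure only the spread between wells of that differentiation. Per the labels' protocols, cells received the WNT pathway activator CHIR99021 on day 0 in medium with B27 lacking insulin, and the WNT secretion inhibitor IWP2 on day 2. On day 4 IWP2 was withdrawn, and B27 with insulin was given from day 6 on. Whether the day 6 wells were collected before that change of medium is not given in the sources used here. The class was set on day 16 by flow cytometry for cardiac troponin T, and those percentages are not analysed here. The wells set beside these were 8 of a low purity WTC11 differentiation (passage 69, the same days and agents, 4 wells a day), and 6 libraries of high purity differentiations of WTC11, H9 and IMR90-4 from a separate RNA-only experiment. RNA was poly(A)-selected in the wells, and the RNA-only libraries were made from total RNA. H9 is an embryonic stem cell line and IMR90-4 an induced pluripotent one. These RNA-only libraries were of other passages than the high purity wells, and the WTC11 ones of a higher passage than both sets of wells. H9 and IMR90-4 were sampled on later days than WTC11, and the timing of their agents is not described here.

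Activating WNT signalling turns pluripotent cells into mesoderm like that of the primitive streak, marked by T-box factors such as EOMES. Blocking WNT afterwards directs part of that mesoderm towards the heart. Cardiac transcription factors such as NKX2-5, MEF2C and TBX5 then act with GATA factors to switch on the genes of the sarcomere, the contractile unit of muscle, while the streak genes are shut off.

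Day 4 wells had 12246678 to 15740106 reads and day 6 wells 9752007 to 13900958, with no detectable difference in depth (two-sided exact permutation p = 0.1714, with 0.0286 the lowest this design allows). RNR2, a mitochondrial ribosomal RNA, took up 12.6% to 17.0% of TPM on day 4 and 11.3% to 17.1% on day 6. RN7SK, another non-coding RNA, took up 5.84% to 10.15% on day 4 and 6.82% to 9.93% on day 6. Log2 levels correlated across genes at 0.957 to 0.975 within a day and at 0.920 to 0.936 between days. Among the RNA-only WTC11 libraries of both purity classes, the nearest was of the same day for 8 of 8 wells. The purity class of the nearest library was not checked.

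From day 4 to day 6, 1213 genes rose and 841 fell, together 10.5% of the genes tested. A call needed a limma adjusted p under 0.05 and a change of at least 1 on the log2(TPM + 1) scale, which understates the change of low genes. The wells of the days did not overlap for 1926 of these 2054 genes, against 29.3% of all genes tested. Protein-coding genes made up 1323 of the calls (853 up, 470 down) and long non-coding RNAs 429. At most 10 reads in every well were behind 155 calls, and 22 were of genes annotated at more than 1 place. TTR and MYH6 had the largest increases among the named genes, and EOMES and GRIK3 the largest decreases. In bulk RNA, more cells of a type and more RNA per cell cannot be told apart.

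**Figure D1:**
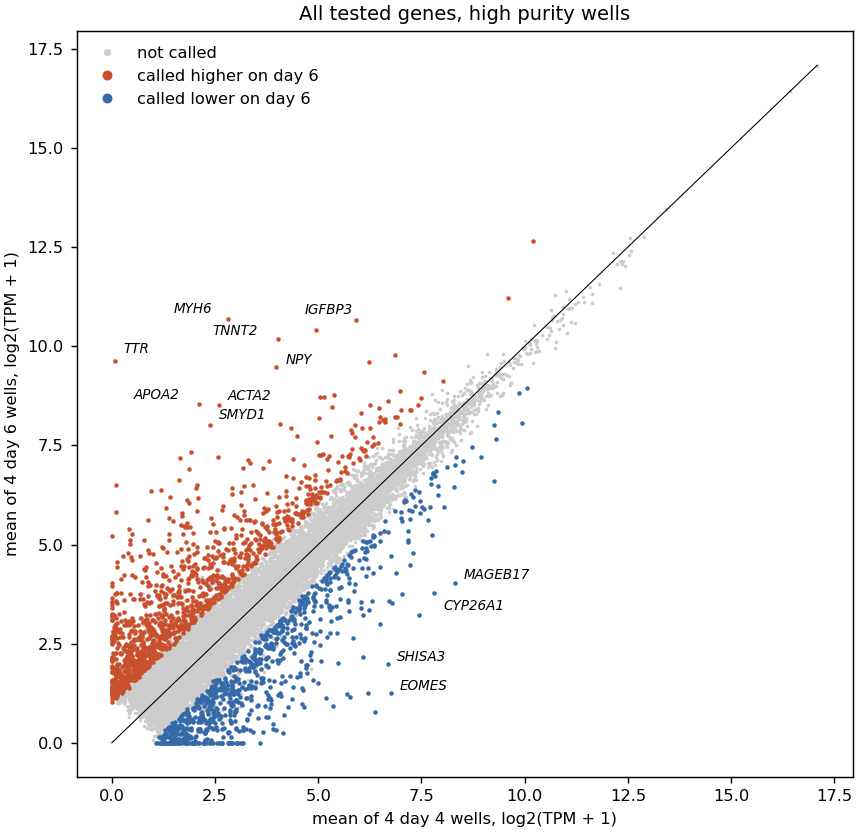
Mean level of each of the 19611 tested genes in the 4 day 4 wells (x axis) and the 4 day 6 wells (y axis), both as log2(TPM + 1); coloured points are called higher (1213) or lower (841) on day 6, and the line marks equal levels. TTR and MYH6 lie farthest above the line among the labelled genes, and EOMES farthest below it.

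Sarcomere genes had the highest median change of the 34 lists. Of 30 listed, 28 were tested, and 24 of these rose, where 6.19% of all tested genes did. The list's median log2 change was 3.09, against -0.01 over all genes. MYL2 and MYPN, the other two, stayed under 0.5 TPM. The summed level of the list went from 659 to 796 TPM over the day 4 wells to 6288 to 10767 TPM over the day 6 wells. For 4 genes of the group that led the increases, the 250 bases before the RefSeq start site are shown (GRCh38.p14, each 5′ to 3′ on the gene's strand). MYH6 is at chr14:23408274-23408523 (minus strand), TNNT2 at chr1:201377681-201377930 (minus), SMYD1 at chr2:88067575-88067824 (plus) and MYBPC3 at chr11:47352703-47352952 (minus). Capitals mark the motif of the GATA factors, spelled AGATAA. They also mark the TATAAA of core promoters, and both were searched on either strand.
MYH6: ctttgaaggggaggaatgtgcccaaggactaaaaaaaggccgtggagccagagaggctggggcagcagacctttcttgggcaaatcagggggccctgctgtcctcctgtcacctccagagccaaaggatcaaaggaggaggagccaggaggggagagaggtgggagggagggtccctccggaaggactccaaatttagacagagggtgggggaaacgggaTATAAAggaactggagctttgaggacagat
TNNT2: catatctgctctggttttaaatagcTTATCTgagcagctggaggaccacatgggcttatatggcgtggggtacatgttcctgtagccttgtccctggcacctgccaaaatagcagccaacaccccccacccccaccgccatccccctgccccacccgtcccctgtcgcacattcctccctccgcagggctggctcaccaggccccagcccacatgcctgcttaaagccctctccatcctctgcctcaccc
SMYD1: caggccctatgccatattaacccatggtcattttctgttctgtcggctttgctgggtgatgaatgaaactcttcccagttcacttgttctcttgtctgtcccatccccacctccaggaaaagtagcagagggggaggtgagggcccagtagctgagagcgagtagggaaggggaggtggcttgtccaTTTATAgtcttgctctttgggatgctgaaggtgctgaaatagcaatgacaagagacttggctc
MYBPC3: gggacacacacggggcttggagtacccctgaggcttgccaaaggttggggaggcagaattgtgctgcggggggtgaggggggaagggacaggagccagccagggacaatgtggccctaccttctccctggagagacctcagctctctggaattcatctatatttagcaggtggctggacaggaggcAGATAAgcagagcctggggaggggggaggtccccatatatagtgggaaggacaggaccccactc

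A TATAAA match lay 30 bases before the start of MYH6 and, on the opposite strand, 63 before that of SMYD1. An AGATAA match lay 64 bases before the start of MYBPC3 and, on the opposite strand, 225 before that of TNNT2. Among all 35116 promoter windows of this length, 10.7% held TATAAA and 9.17% held AGATAA. The E-box CANNTG was found 4 times in TNNT2 and in 1 place each in SMYD1 and MYBPC3, and 61.8% of all windows hold it. The NKX2-5 motif AAGTG was found in SMYD1, where it overlaps the E-box, and 37.6% of all windows hold it. The CArG box of SRF, which 1.16% of windows hold, was in none of these 4 windows. Such matches describe the letters only.

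MYH6 encodes the alpha myosin heavy chain of the atrium and the embryonic heart (chromosome 14, 23381987 to 23408273). Its level was 4.45, 3.66, 5.51 and 10.3 TPM in day 4 wells 1 to 4, and 2079, 1482, 1138 and 1916 TPM in day 6 wells 1 to 4. The wells of the days were far apart, and the log2 change was 7.90 ± 0.27 (SE; adjusted p 3.34e-07). TNNT2 (chromosome 1, 201359014 to 201377680) encodes the troponin subunit that was stained to score purity. It was at 17.0, 12.9, 10.3 and 20.8 TPM on day 4 and at 1335, 916, 656 and 1751 TPM on day 6. Day 6 wells 1 and 4 were the high ones for both genes, and well 3 the low one. The TNNT2 change was 6.07 ± 0.32 (adjusted p 2.05e-06).

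ACTC1, the cardiac actin, had already reached 61.0, 49.2, 61.6 and 64.5 TPM on day 4, and stood at 1940, 1466, 1149 and 1892 TPM on day 6 (log2 change 4.68 ± 0.15, adjusted p 2.38e-07). The atrial light chains were likewise above 30 TPM in every day 4 well. MYL7 went from 42.0, 36.4, 37.9 and 47.2 TPM to 506, 391, 330 and 502 TPM, and MYL4 from 72.5, 63.1, 63.5 and 96.2 to 942, 668, 568 and 930 TPM. Wells 1 and 4 were again above wells 2 and 3 on day 6. TTN, the giant spring of the sarcomere, rose by 2.21 ± 0.14 from 57.2 to 73.6 TPM on day 4 to 246 to 412 TPM on day 6. Other genes began near zero. MYBPC3, cardiac myosin-binding protein C, was at 0, 0.0469, 0.0588 and 0.178 TPM on day 4, 5 reads in all, and at 88.4, 34.0, 24.5 and 73.5 TPM on day 6 (5.51 ± 0.36, adjusted p 7.42e-06; 9.53 by edgeR on recovered reads).

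Genes that act in building the sarcomere rose too. SMYD1, a muscle lysine methyltransferase, went from 4.72, 2.5, 3.75 and 5.80 TPM to 342, 240, 187 and 263 TPM (5.61 ± 0.21, adjusted p 4.22e-07). UNC45B, a chaperone of myosin, rose by 4.99, and XIRP1, an actin-binding repeat protein, by 5.41. The Z-disc genes LDB3 and ACTN2 rose by 5.08 and 4.71. Day 4 and day 6 wells did not overlap for any of these 5 genes. MYL3 had the widest relative spread of the group between day 6 wells, at 207, 70.5, 35.5 and 257 TPM against 16.8, 12.8, 25.9 and 23.6 TPM on day 4 (2.40 ± 0.57, adjusted p 0.011). MYH7, the beta myosin heavy chain, reached 3.74 to 10.4 TPM, far under MYH6. TNNI3 (0.82), CRYAB (0.99) and TNNT1 (-0.28) were among the 4 members that were not called. Because MYH6 and MYH7, and the muscle actins, share long near-identical stretches, reads between them could be split by the counting.

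**Figure D2:**
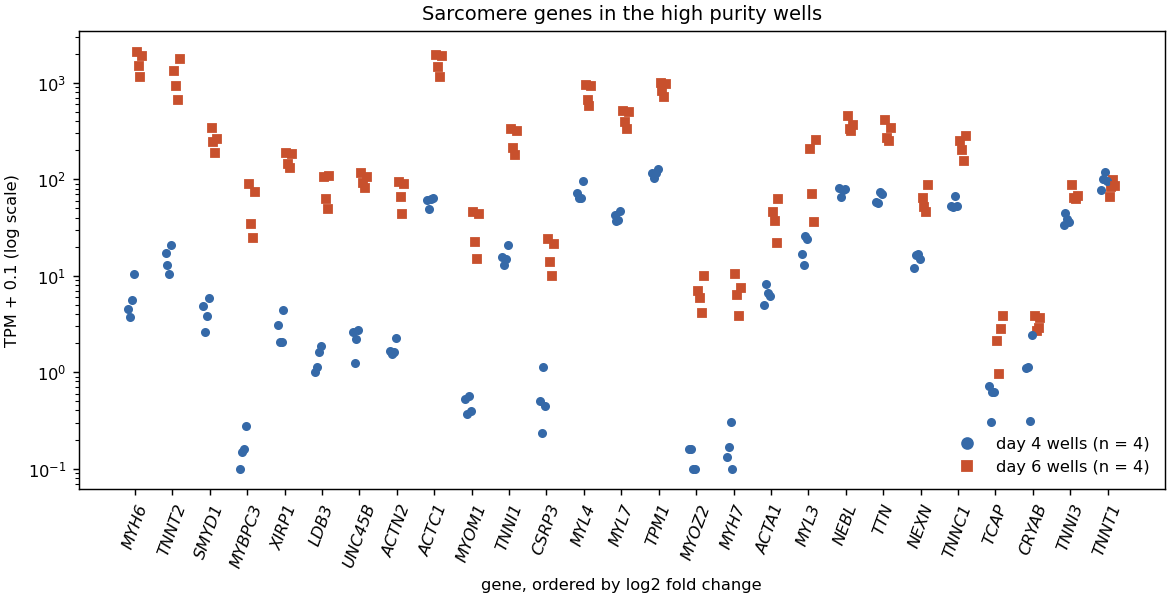
TPM + 0.1 on a log axis for 27 sarcomere genes, ordered by log2 fold change; circles are the 4 day 4 wells and squares the 4 day 6 wells. Among the genes drawn, the wells of the days overlap for TNNT1 alone.

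Cardiac transcription factors moved less than the structural genes. Of 29 tested, 7 rose and 3 fell (4.29% of all genes tested fell), and the median change was 0.49. MEF2C, a MADS-box activator of muscle genes, went from 3.64, 2.28, 1.87 and 4.61 TPM to 101, 83.4, 76.6 and 80.5 TPM (4.40 ± 0.20, adjusted p 1.2e-06). NKX2-5, the homeobox factor of the early heart, went from 6.59, 5.24, 5.72 and 4.32 TPM to 72.4, 55.9, 48.4 and 72.1 TPM (3.24 ± 0.15, adjusted p 1.3e-06). For both genes every day 6 well was above every day 4 well. TBX5 rose by 2.28 ± 0.25, from 6.42 to 11.7 TPM on day 4 to 33.0 to 65.3 TPM. MYOCD, the myocardin co-activator of SRF, was already at 25 to 44.2 TPM and rose by 2.14 ± 0.18 to 122 to 196 TPM. NR2F2, an orphan nuclear receptor of the atrium, LBH and MEF2A rose by 2.90, 1.42 and 1.21.

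HAND1, a bHLH factor of the left ventricle and of extraembryonic mesoderm, went the other way. Its level was 243, 238, 243 and 230 TPM on day 4 and 69.6, 65.6, 66.7 and 97.8 TPM on day 6, with no overlap (-1.72 ± 0.14, adjusted p 2.4e-05). IRX3 and IRX5 fell by 1.18 and 1.03. The pioneer factors were present on both days below the fold threshold. GATA4 was at 52.5 to 61.5 and then 81.2 to 96.2 TPM (0.56, adjusted p 2.4e-04), GATA6 at 90.9 to 110 and then 103 to 139 TPM (0.17, adjusted p 0.15), and ISL1 at 45.4 to 63.5 and then 44.2 to 61.7 TPM (-0.15, adjusted p 0.41).

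Genes of calcium handling and ion channels divided. Of 23 tested, 12 rose and 4 fell, with a median of 1.05. SLC8A1, the sodium-calcium exchanger of the cell membrane, went from 2.16, 1.77, 1.73 and 3.00 TPM to 197, 125, 93.4 and 163 TPM (5.45 ± 0.22, adjusted p 5.21e-07). PLN, the phospholamban brake on the calcium pump, rose by 4.07 to between 33.5 and 76.7 TPM, and RYR2, the release channel of the sarcoplasmic reticulum, by 2.98 to between 31.5 and 57.4 TPM. The pump itself, ATP2A2, was at 104 to 134 TPM before and 169 to 231 TPM after (0.61, adjusted p 2.3e-04). HCN4, a pacemaker channel, rose by 1.76, and the L-type calcium channel genes CACNA1D and CACNA1C by 3.48 and 2.04. The connexin genes GJA1 and GJA5 fell. GJA1, connexin 43, went from 1225, 883, 1100.5 and 1060.0 TPM to 441, 580, 594 and 338 TPM (-1.20 ± 0.18), and GJA5 fell by 1.76. KCNJ3 fell by 1.43. NPPA, a natriuretic peptide gene, was called at 1.80 ± 0.55 (adjusted p 0.034), although its wells overlapped (0.29 to 2.63 TPM and 1.51 to 14.6 TPM).

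Of 14 genes of muscle energy metabolism, 7 were called and all 7 rose, among them the oxygen-binding MB (3.09), the mitochondrial co-activator PPARGC1A (2.70) and the fatty acid carrier FABP3 (2.01). In glycolysis, PDK1, a kinase that inhibits pyruvate dehydrogenase, alone was called of 14 genes, where 10.5% of all genes tested were called. It was at 19.8 to 30.6 TPM and then 86.6 to 128 TPM (1.86 ± 0.13).

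IGFBP3, a carrier of insulin-like growth factors, was at 31.1, 24.6, 24.7 and 38.4 TPM on day 4 and at 1242, 1574, 1329 and 1292 TPM on day 6 (5.44 ± 0.15, adjusted p 1.32e-07). Its day 6 wells lay closer together, relative to their mean, than those of MYH6 and TNNT2. Of 11 genes of the IGF system tested, 6 were called, each higher on day 6, with a median of 1.13. IGFBP5 rose by 3.52, IGFBP6 by 3.25 and IGFBP7 by 4.07, and IRS1, which relays insulin and IGF signals, by 1.56. NPY, neuropeptide Y, went from 13.9, 17.1, 11.2 and 17.1 TPM to 586, 766, 776 and 693 TPM (5.45 ± 0.18, adjusted p 2.89e-07).

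Primitive streak genes fell together. Of 15 listed, 13 were tested and 11 of these fell, with a median of -2.01 (-3.34 by edgeR on recovered reads and -3.31 with a pseudocount of 0.1). Their summed level went from between 708 and 1032 TPM to between 147 and 163 TPM. EOMES, a T-box factor of the streak (chromosome 3, 27715953 to 27722713), was at 108, 104, 122 and 95 TPM on day 4 and at 1.11, 1.34, 1.85 and 1.19 TPM on day 6. Its change of -5.55 ± 0.12 was the largest decrease among the named genes (adjusted p 3.53e-08). TDGF1, the NODAL co-receptor, held most of the summed level and went from 604, 590, 764 and 481 TPM to 94.5, 95.6, 106 and 90.9 TPM (-2.67 ± 0.12). The well with the highest day 6 value was still under every day 4 well for both genes. NODAL itself fell by 2.00, the NODAL antagonists CER1 and LEFTY2 by 2.91 and 2.01, and the T-box and bHLH factors TBXT and MESP1 by 2.81 and 2.38. Several members had been far higher on day 2 than on day 4. Their high purity means were 758 and then 8.07 TPM for TBXT, 682 and 4.78 for MIXL1, 445 and 14.8 for SP5, and 106 and 4.42 for GSC. TDGF1 was at 610 TPM on both days, after 1182 on day 0, and MESP1, MESP2 and LEFTY2 were higher on day 4 than on day 2. FOXH1, a partner of NODAL's SMAD proteins, was not called (-0.53), and LHX1 was left out because its symbol is annotated at more than 1 place.

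Of 12 listed genes of paraxial mesoderm, which forms the somites, 9 were tested and 5 of these fell, with a median of -1.36. PAX3 was higher on day 6 without being called (0.66, adjusted p 0.056), and edgeR called 1 of the 9 higher. RIPPLY1, a partner of T-box factors in the somite, was at 35.4, 41.7, 43.6 and 38.8 TPM on day 4 and at 0, 0, 3.24 and 0.427 TPM on day 6 (-4.72 ± 0.42, adjusted p 4.66e-05). EBF2 went from 37.9, 34.4, 38.6 and 31.0 TPM to 1.30, 1.21, 1.69 and 0.543 TPM (-4.12 ± 0.17, adjusted p 6.2e-07). FOXC1, the most abundant of these genes, fell by 1.48 from 147 to 165 TPM to 49.2 to 59.6 TPM. TBX6 and UNCX did not pass the fold threshold (-0.89 and -0.82).

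The other leading decreases were in genes of varied roles. GRIK3, a subunit of kainate receptors, was at 68.8, 68.7, 88.9 and 64.5 TPM on day 4 and at 1.21, 1.84, 1.29 and 1.18 TPM on day 6 (-4.98 ± 0.12, adjusted p 5.25e-08). SHISA3, of a family that holds WNT and FGF receptors inside the cell, went from 108, 97.6, 106 and 95.4 TPM to 4.34, 2.82, 3.76 and 0.879 TPM (-4.85 ± 0.28, adjusted p 3.22e-06). None of the wells of the days overlapped for these genes. MAGEB17 went from 275 to 391 TPM to 10.3 to 19.4 TPM (-4.34), and SAMD3 from 44.1 to 58.7 TPM to 0.939 to 1.69 TPM (-4.50). WDR93, the nuclear receptor gene NR0B1 and GYPB fell by 3.89, 3.68 and 3.59. By edgeR on recovered reads the changes of WDR93 and GYPB were -6.48 and -5.70. GYPB belongs to the glycophorin genes, which are near-identical copies, so its assignment is uncertain.

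Retinoic acid genes changed in both directions. CYP26A1, which breaks retinoic acid down, was at 222, 225, 255 and 194 TPM on day 4 and at 10.6, 18.8, 12.3 and 8.76 TPM on day 6 (-4.13 ± 0.20, adjusted p 1.41e-06). ALDH1A1, which makes retinoic acid, rose by 2.69 to between 7.40 and 18.5 TPM. ALDH1A2, the main such enzyme of the embryonic heart field, was low on both days (2.05 to 3.83 and 0.827 to 1.71 TPM; -0.90). Of the 14 genes tested, 3 rose and 3 fell, and the binding proteins CRABP1 and CRABP2 were among those that fell (-1.49 and -1.09).

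WNT signalling genes divided as well. The secreted WNT antagonists SFRP2, SFRP1 and SFRP5 fell by 2.83, 1.77 and 1.15, SFRP1 from 450 to 556 TPM to 128 to 158 TPM. Of 13 feedback targets, 4 fell and 2 rose. LGR5, the R-spondin receptor, fell by 3.33 from 16.2 to 29.8 TPM to 1.06 to 2.11 TPM, and AXIN2, a scaffold that dampens the pathway, by 1.10. DKK1, a secreted WNT inhibitor, rose by 2.83 from 0.876 to 2.95 TPM to 13.4 to 26.8 TPM. Among the ligands, WNT2 rose by 3.71 to between 13.3 and 22.4 TPM and WNT5A by 1.11, while WNT8A fell, with 252 reads in the day 4 wells and 3 in the day 6 wells.

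BMP4 fell by 1.17 from 160 to 187 TPM to 71.6 to 92.0 TPM, while BMP2 was high on both days (304 to 349 and 267 to 336 TPM; -0.19). The BMP ligand genes BMP6 and BMP10 rose by 2.56 and 1.84. Of 10 BMP targets, MSX1 (-2.27) and MSX2 (-1.36) fell and BAMBI (1.34) and ID4 (1.31) rose. FGF17 fell by 3.16 and the FGF feedback phosphatase DUSP4 by 1.40, whereas DUSP6 rose by 1.07. Of 14 Notch genes, 2 were called, where 10.5% of all genes tested were. HES1, a Notch target, rose by 1.06 from 141 to 185 TPM to 335 to 419 TPM, and the ligand DLL4 by 1.15. DLL4 had 2 reads in the day 4 wells and 73 in the day 6 wells, and leaving out day 4 well 4 or day 6 well 1 or 4 left 1 Notch gene called.

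Markers of other cell types moved beside the cardiac genes, and their part in the results above was not tested. Of 19 tested endothelial and blood genes, 13 rose, with a median of 2.23 (3.35 with a pseudocount of 0.1), and the summed level of the list went from 86.2 to 101 TPM to 349 to 421 TPM. CDH5, the cadherin of vessels, was at 0.0479, 0, 0.181 and 0.0606 TPM on day 4 and at 10.2, 12.8, 8.16 and 12.9 TPM on day 6 (3.45 ± 0.18, adjusted p 2e-06). All day 6 wells were apart from all day 4 wells. PLVAP rose by 4.19 to between 20.3 and 26.9 TPM, the blood and vessel factor TAL1 by 2.73 to between 5.92 and 6.72 TPM, and PECAM1 by 1.94 to between 2.97 and 4.86 TPM. HHEX, a homeobox factor of endothelium and also of endoderm, was the most abundant on day 6 (183 to 235 TPM; 2.41). Its mean went from 38.4 to 211 TPM, a large part of the list's summed level on both days. GATA2 (24.7 and then 18.9 TPM), ETV2 (2.51 and 1.51), SOX18 (1.58 and 1.39) and GATA1 (0.866 and 0.543) had lower means on day 6 and were not called. CLDN5, RUNX1 and LYVE1 were below the filter. KDR, the VEGF receptor of cardiovascular precursors, was at 203 to 266 TPM and then 205 to 251 TPM, with overlapping wells (-0.04, adjusted p 0.79).

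Of 12 endoderm genes tested, 7 rose and SOX17 fell. TTR, the carrier of thyroid hormone and retinol-binding protein (chromosome 18, 31591877 to 31598821), was at 0.212, 0, 0 and 0 TPM on day 4 and at 615, 919, 982 and 658 TPM on day 6. It had 1 read in the day 4 wells and 10728 in the day 6 wells, a ratio of reads per total of 12501 with an exact 95% counting interval of 2243 to 493800, and led all named genes at 9.51 ± 0.17 (adjusted p 2.13e-08). Wells 2 and 3 held more of it than wells 1 and 4. APOA2, an apolipoprotein of high density particles, went from 1.66, 7.92, 3.14 and 0.527 TPM to 358, 392, 331 and 403 TPM (6.69 ± 0.47, adjusted p 1.19e-05). AFP, APOA1 and APOB rose by 3.64, 3.35 and 3.24, and the factors FOXA1 and HNF4A by 2.33 and 1.37. SOX17, a factor of early endoderm, fell from 74.3, 75.7, 88.9 and 73.9 TPM to 9.10, 11, 14.5 and 8.70 TPM (-2.81 ± 0.15, adjusted p 2.3e-06). FOXA2 (0.81), FOXA3, CDH1 and EPCAM were not called. The list's summed level was 599 to 771 TPM and then 1937 to 2433 TPM.

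ACTA2, smooth muscle actin, which early cardiomyocytes also express, went from 4.04, 5.03, 6.17 and 4.97 TPM to 482, 304, 231 and 437 TPM (5.83 ± 0.21, adjusted p 4.02e-07). Of 8 smooth muscle genes, 5 rose, with a median of 1.17. The stromal list had 4 genes up and 3 down of 11. FN1, fibronectin, was by far the most abundant of these, at 982 to 1288 TPM and then 5672 to 7258 TPM (2.41 ± 0.10), and COL3A1 rose by 3.22. Of 5 epicardial genes tested, 2 rose and 1 fell, and their summed level went from 44.2 to 56.8 TPM to 69.1 to 83.9 TPM, while the epicardial marker WT1 stayed under 0.5 TPM. DCN, a fibroblast marker, stayed under 0.22 TPM. HAS2, which makes the hyaluronan of the cardiac jelly, fell by 1.91 from 802 to 1148 TPM to 240 to 314 TPM.

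Pluripotency genes were lower on day 6 than on day 4 in all 11 tested, of which 7 fell. NANOG went from 4.07, 4.27, 3.68 and 2.84 TPM to 0.323, 0.368, 0.125 and 0.0492 TPM (-1.98 ± 0.18). SOX2 went from 41.1, 42.4, 56.1 and 39.0 TPM to 12.8, 16.5, 14 and 12.7 TPM (-1.64 ± 0.12). The anterior factor OTX2 was still abundant on day 4, at 310 to 412 TPM, and fell by 1.68 to between 104 and 127 TPM. POU5F1 was left out, since its symbol is annotated at more than 1 place.

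All 18 genes of proliferation were lower on day 6, none by as much as 1 on the log2 scale. limma called 0 of them and so did edgeR, while 17 had an adjusted p under 0.05 (17 also unadjusted), against 15.4% of all genes with an adjusted p under 0.05 and a lower level. MKI67 was at 156, 169, 167 and 164 TPM and then at 101, 112, 123 and 117 TPM (-0.58 ± 0.10), and the median of the list was -0.57. CDKN1A, which codes for the cyclin-dependent kinase inhibitor p21, went from 3.14, 3.82, 3.20 and 2.56 TPM to 33.4, 25.7, 26.2 and 32.6 TPM (2.83 ± 0.14, adjusted p 1.7e-06). Cholesterol synthesis genes were lower for 14 of 15 members (median -0.72). Of these 2 fell past the fold threshold, among them INSIG1 (-1.18), and 13 had an adjusted p under 0.05 in that direction.

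**Figure D3:**
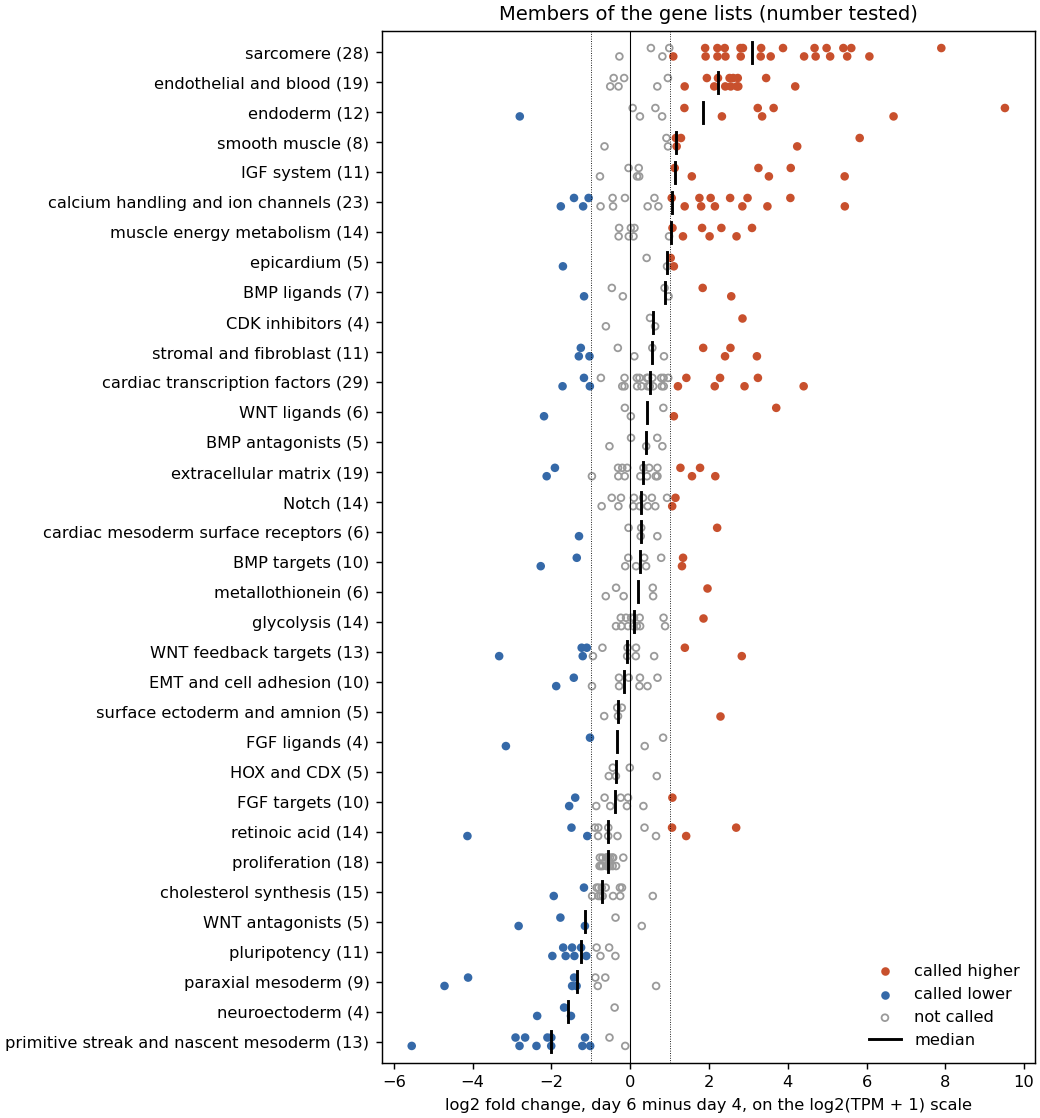
Log2 fold change from day 4 to day 6 of each tested member of the 34 gene lists, with the number tested in brackets; filled points passed the call, open points did not, bars are list medians and dotted lines mark a change of 1. The sarcomere list has the highest median (3.09) and the primitive streak list the lowest (-2.01).

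Set in the time course of the same differentiation, the named genes took different paths. EOMES had means of 327, 107, 1.37 and 0.267 TPM over days 2, 4, 6 and 8. CYP26A1 and SHISA3 were highest on day 4 of these days, at 224 and 102 TPM, after 29.2 and 3.24 TPM on day 2. MYH6 and TNNT2 had means of 3259 and 2952 TPM on day 8. NPY was at 705 TPM on day 6 and 552 on day 8, and IGFBP3 at 1359 and 756 TPM. TTR was at 793 TPM on day 6, 877 on day 8 and 11.8 on day 16. Day 8 had 3 wells and day 16 had 3, and these later changes were not tested here.

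**Figure D4:**
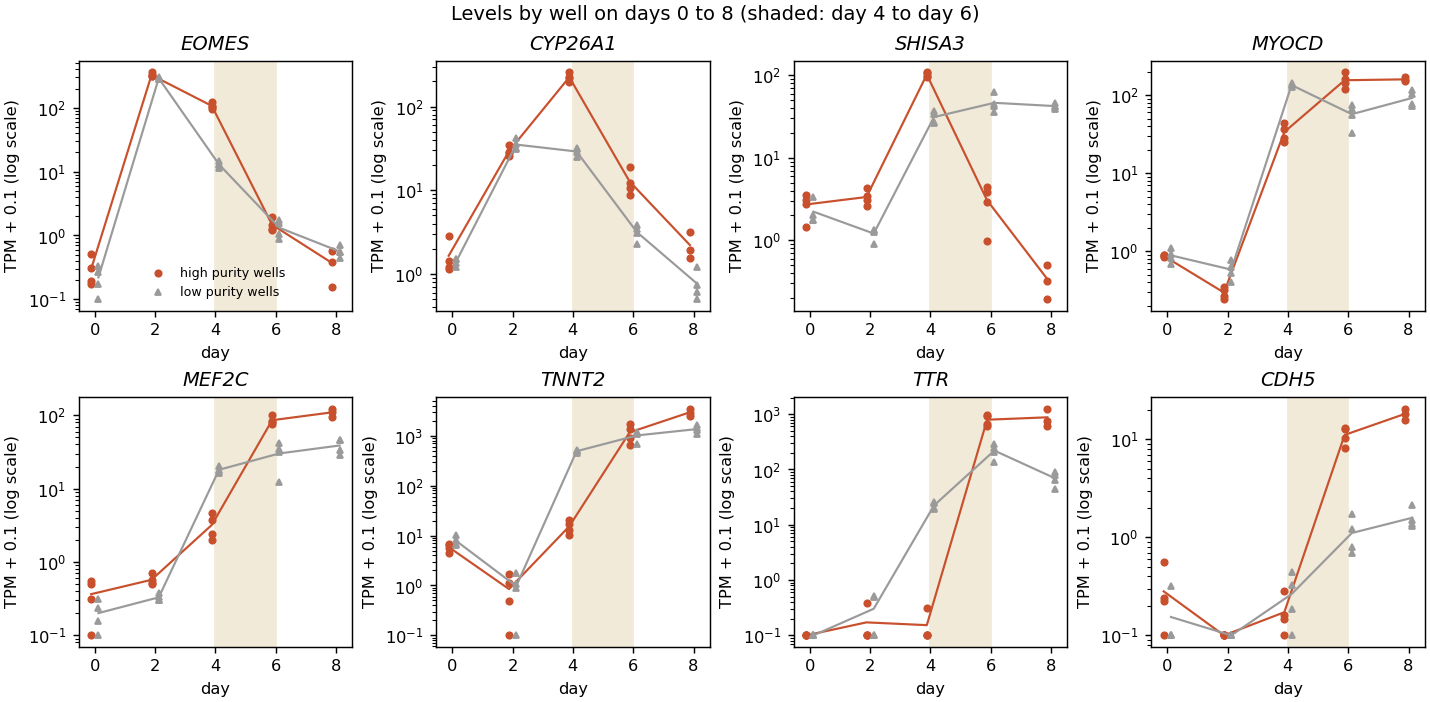
TPM + 0.1 on a log axis in single wells on days 0, 2, 4, 6 and 8 for 8 genes; circles are high purity wells (4 a day, 3 on day 8), triangles low purity wells (4 a day), lines join the means and shading marks day 4 to day 6. EOMES, CYP26A1 and SHISA3 fall over the shaded step in the high purity wells, while MYOCD, MEF2C, TNNT2, TTR and CDH5 rise.

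The same step was compared with that of the low purity differentiation by testing the difference of the changes over 16 wells. It differed for 1616 genes, 8.24% of those tested, with 870 higher and 746 lower in high purity. The filter used the high purity wells alone, so genes present mainly in low purity wells were left out. Without the filter, for genes detected in at least 1 high purity well, 879 were higher and 885 lower. Purity, passage and differentiation cannot be told apart here. Of the 24 genes named for the largest changes, 21 differed. The 24 were chosen for their change in the high purity wells, which also enter this test. Of the 6 genes named for the widest gap towards high purity, TTR had a difference of 6.30 (9.66 by edgeR on recovered reads) and the other 5 were sarcomere genes. SMYD1 rose by 5.61 in high and changed by 0.09 in low purity wells (difference 5.51, adjusted p 7.09e-08), where it had been at 62.9 ± 2.34 TPM on day 4 and was at 72.2 ± 27.4 TPM on day 6 (SD, n = 4 each). ACTC1 was at 1732 ± 279 TPM on day 4 and 1191 ± 206 TPM on day 6 in low purity wells, so that the difference of the changes was 5.22 (adjusted p 2.11e-09). TNNT2 had begun at 489 ± 27.4 TPM there, against 15.2 ± 4.63 TPM in high purity wells, and the day 6 levels were 1012 ± 230 and 1165 ± 481 TPM. The high purity wells were lower on day 4 and overlapped the low purity wells in TNNT2 on day 6.

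Of the 28 sarcomere genes, 18 had the larger change in high purity (4.44% of all genes tested did) and 2 the smaller one (3.80% did). In low purity wells 13 of them rose, where 4.49% of all genes tested rose. Endothelial and blood genes differed for 13 of 19, all larger in high purity: CDH5 rose by 3.45 in high and by 0.76 in low purity wells (difference 2.66, adjusted p 2.9e-06). Cardiac mesoderm receptors differed for 4 of 6 in the same direction. PDGFRA changed by 0.26 in high and by -1.28 in low purity wells (adjusted p of the difference 2e-06), and APLNR by 0.69 and -2.30. HAND1 moved in opposite directions, by -1.72 in high and by 1.21 in low purity wells (difference -2.93, adjusted p 1.4e-07), and so did MSX1, by -2.27 and 1.6 (difference -3.87, adjusted p 6.5e-06).

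The 6 genes named for the widest gap in the other direction were RSPO1, SHISA3, PAPPA, CXCL14, AQP1 and DSC3. RSPO1, a secreted enhancer of WNT signalling, was at 2.36, 3.01, 3.21 and 2.26 TPM on day 4 and at 0, 0.265, 0.105 and 0.165 TPM on day 6 in high purity wells. In low purity wells it went from 0.0528 ± 0.0612 to 23.3 ± 8.01 TPM (difference -6.20, adjusted p 1.61e-09). The RSPO1 difference was -11.0 with a pseudocount of 0.1 and -12.9 by edgeR on recovered reads, and its change in high purity wells was -1.72, -3.74 and -4.31 under these 3 settings. PAPPA, a protease of IGF-binding proteins, fell by 2.04 in high and rose by 3.06 in low purity wells. SHISA3 fell by 4.85 in high and changed by 0.54 in low purity wells (difference -5.39). AQP1, a water channel, changed by 0.73 in high (not called) and by 4.64 in low purity wells, and DSC3, a desmosomal cadherin, by 1.18 and 5.06. APOA2 and MYBPC3 rose in both, by 6.69 and 5.41 and by 5.51 and 4.44, with no called difference (adjusted p 0.17 and 0.165). NR0B1 fell by 3.68 in high and by 3.82 in low purity wells (difference 0.15 ± 0.30, adjusted p 0.774).

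The RNA-only experiment gave a corresponding step in 3 further high purity differentiations, with 1 library a stage in each line. It ran from day 4 to day 6 in WTC11 and from day 5 to day 7 in H9 and IMR90-4. Passage, RNA selection and, for H9 and IMR90-4, line and days differed from the wells. No test was run on these libraries. All 12 genes named as rising were higher and all 12 named as falling were lower at the later stage in H9, IMR90-4 and WTC11. TNNT2 changed by 5.79, 5.87 and 6.47 in the 3 lines on the log2(TPM + 1) scale, and MYH6 by 6.96, 7.40 and 6.73. EOMES changed by -2.95, -2.41 and -3.28. TTR changed by 3.93, 4.64 and 6.23, where the wells gave 9.51. Of the 853 protein-coding genes that rose in the wells, 697 (81.7%) were higher in all 3 lines, as were 26.5% of all 13382 protein-coding genes tested. Of the 470 that fell, 377 (80.2%) were lower in all 3 lines, as were 26.0% of all.

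By list, 23 of the 24 sarcomere genes that rose, 12 of the 13 endothelial and blood genes and all 5 paraxial mesoderm genes that fell went the same way in all 3 lines. Of the 11 streak genes 8 did: CER1 changed by -0.06, 0.04 and -3.20 in H9, IMR90-4 and WTC11. Of the 7 endoderm genes that rose 4 did, and FOXA1 changed by -0.04, 1.2 and 0.44. Of the genes that rose, 0 of 2 BMP ligands, 0 of 2 epicardial genes and 1 of 3 retinoic acid genes were higher in all 3 lines. KCNJ3, which fell in the wells, changed by 1.83, 0.19 and 0.12. MKI67 changed by 0.48, 0.11 and -0.43.

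**Figure D5:**
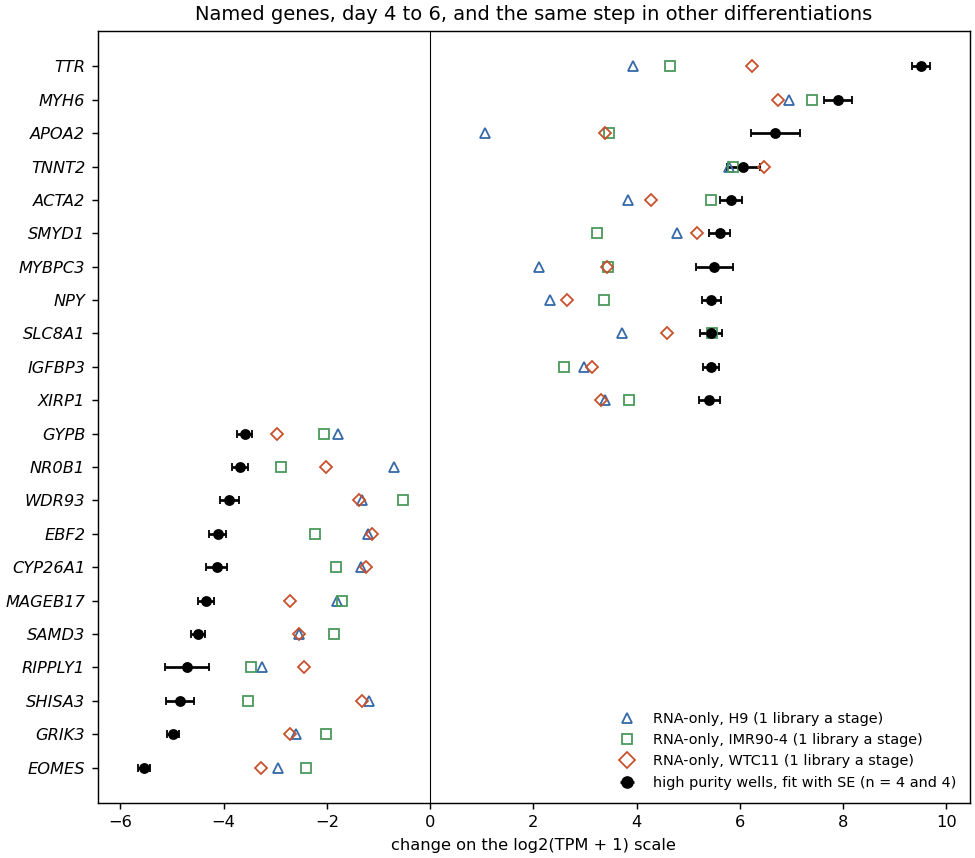
Change on the log2(TPM + 1) scale of 11 genes named as rising and 11 named as falling: filled circles with SE bars are the fit to the 4 day 4 and 4 day 6 wells, open symbols the difference between 1 later and 1 earlier library in H9, IMR90-4 and WTC11. Every open symbol lies on the same side of 0 as its circle, and the symbols of TNNT2 lie between 5.79 and 6.47.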

How the data were processed

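Poly(A) RNA of single wells was sequenced. Per the submitters' processing notes, STAR 2.5.3a, featureCounts 2.0.3 and the build hg38 were used. The authors deposited TPM and read counts per gene; how TPM were computed and the annotation release are not given in the sources used here. Of the 56 columns of the deposited multi-omic counts, 0 matched the like-named TPM column and 50 matched a TPM column with another name, so TPM were used. Gene lengths solved from the counts and TPM of the RNA-only experiment gave whole reads (within 0.05) for 100% of nonzero TPM in 37194 of 43388 genes; these reads give the depth and the edgeR alternative. The 6194 other genes held at most 0.192% of a well's TPM. For 36 broken lines of the RNA-only counts, 6 genes (TTN among them) have no reads.

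TPM of genes with at least 1 TPM in 3 or more wells were scaled by TMM (edgeR 4.0.16). A model of day was fitted to log2(TPM + 1) by limma-trend (limma 3.58.1, R 4.3.3), with Benjamini-Hochberg adjustment over 19611 genes. The difference between differentiations was fitted on 16 wells in the same way, for the genes that passed the filter in the high purity wells. Calls needed an adjusted p under 0.05 and an absolute log2 change of at least 1. The fits were tested on simulated data. Chi-square per degree of freedom between wells of a day was 3.61 to 18.1, so no wells were duplicates. Counting intervals cover counting error only.

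Named genes are the 12 protein-coding genes in each direction (6 for the difference) with the largest called change, no overlap of the wells of the days, at least 5 TPM on the higher day and a symbol at 1 place. Genes of 34 lists are named as examples. A few genes are counted but not reported here. Of 465 list genes, 13 were left out for copies, 65 were below the filter and 387 were tested. The members and lists were chosen with earlier results of these data known. Positions and promoters are RefSeq's, on GRCh38.p14; 23 of 34 called sarcomere and cardiac factor genes had a promoter window. Alternatives were other scalings, pseudocounts, filters, all 56 libraries, a replicate block, edgeR and leaving out each well.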

Additional observations from a re-analysis of the deposited data

Results flagged for a closer look

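Among the 44 groups of 4 wells of 22 named genes, 3 had a well far from the others, where chance gives about 1 in 20. TTR was at 0.212 TPM in day 4 well 1, which is 1 read. GRIK3 was at 1.84 TPM in day 6 well 2, and RIPPLY1 at 3.24 TPM in day 6 well 3.

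The change from day 4 to day 6 differed between the high and the low purity differentiation, by the test of the difference itself, for 25 of the named genes reported here. The genes named for the difference were chosen by this same test, so their part of the count was fixed in advance. The others were chosen for their change in high purity wells that also enter the test. The value given is the high purity change minus the low purity change on the log2(TPM + 1) scale, with 4 wells a group. Among genes that rose in high purity wells it was 6.30 for TTR, 5.53 for MYH6, 5.51 for SMYD1, 5.37 for XIRP1, 5.22 for ACTC1, 5.05 for TNNT2, 4.45 for IGFBP3, 4.37 for SLC8A1, 3.51 for ACTA2 and 3.16 for NPY. Among genes that fell in high purity wells it was -6.20 for RSPO1, -5.39 for SHISA3, -5.10 for PAPPA, -4.33 for CXCL14, -3.66 for WDR93, -3.57 for SAMD3, -3.26 for EBF2, -2.97 for RIPPLY1, -2.88 for EOMES, -2.29 for GRIK3, -1.78 for GYPB, -1.70 for MAGEB17 and -1.24 for CYP26A1. It was -3.91 for AQP1 and -3.89 for DSC3, whose day 6 mean was above the day 4 mean in both. Low purity means were already low on day 4 for RIPPLY1 (2.32 TPM, then 0 on day 6), EBF2 (1.46, then 0.371) and WDR93 (0.555, then 0.321). On the log2(TPM + 1) scale such levels leave little room for a decrease, so these differences do not compare relative decreases.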

How the results depend on the processing

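The number of genes called was within 1.5 times the main one under each alternative but the removal of the fold change threshold. Without it, 6142 genes passed for day 6 minus day 4, high purity wells (3113 up, 3029 down), and 4676 for the difference between high and low purity wells in the change from day 4 to day 6 (2423 higher and 2253 lower in high purity). Leaving out each well gave 1998 to 2055 genes for day 6 minus day 4 (1180 to 1233 up, 790 to 826 down) and 1530 to 1682 for the difference (810 to 946 higher, 687 to 795 lower). Replicate numbers did not pair the wells: same-numbered day 4 and day 6 wells correlated at 0.04, -0.01, -0.04 and -0.07, and 0 of 4 correlated best with its own number. With a replicate block there were 2022 and 1596 genes. Of 480 alternative values of the 30 named genes 478 kept their direction and call; AQP1, not called in high purity, was called with a pseudocount of 0.1 (1.35) and by edgeR (1.31). All 288 values of the 12 genes named for the difference kept both. In the list metallothionein the median log2 fold change turned from 0.20 to -0.070 with a pseudocount of 0.1. With edgeR on recovered reads the medians were 4.37 for sarcomere and -3.34 for streak genes. For Notch genes the calls up went from 2 to 1 without day 4 well 4 or day 6 well 1 or 4. All wells are of 1 differentiation per class, and genes with few reads limit the precision of the largest folds.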

Other observations

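Long non-coding RNAs were looked at with the rule for named genes after the other results were seen. Of 2901 tested, 207 rose and 222 fell, where 6.19% and 4.29% of all genes tested did. LINC02038 went from 1.05, 1.14, 0.611 and 0.923 TPM on day 4 to 81.8, 74.1, 82.4 and 81.7 TPM on day 6 (log2 change 5.36, limma adjusted p 4.3e-08). The host transcripts of muscle microRNAs, MIR1-1HG and MIR133A1HG, rose by 4.01 and 3.66, the former from 0.205 to 1.63 TPM to 23.0 to 39.1 TPM. SLC8A1-AS1, which is antisense to SLC8A1, rose by 4.54; counts do not state the strand setting, so its reads and those of SLC8A1 may be mixed. LINC00458 went from 183, 160.5, 189 and 157 TPM to 9.05, 7.11, 10.2 and 6.83 TPM (-4.27, adjusted p 9.4e-08). LOC105374828, LNCPRESS2 and LINC01335 fell by 4.68, 3.87 and 3.68.

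Of 18 HOX and CDX genes, 5 reached the filter. limma and edgeR each called 0 of these 5. A limma adjusted p under 0.05 held for 2, both lower on day 6, as for 15.4% of all genes tested. HOXB2, the most abundant on day 4, was at 21.4 to 33.0 TPM and then 16.0 to 24.4 TPM. Of 5 BMP antagonists limma and edgeR each called 0. A limma adjusted p under 0.05 held for 2 that were higher and 1 that was lower on day 6. Of all genes tested, 15.9% were higher and 15.4% lower at that level.

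Of 19 extracellular matrix genes 4 rose, among them the laminin gene LAMB1 (1.57), and 2 fell, of which ELN, elastin, changed by -2.12. In the list of cell adhesion and mesenchymal transition, SNAI2 and CDH11 fell by 1.43 and 1.88 and the other 8 of 10 were not called. Of 6 cardiac mesoderm receptors FLRT3 rose by 2.21 and ROR2 fell by 1.30. Of 5 epicardial genes TBX18 and BNC1 rose by 1.11 and 1.03 and TCF21 fell by 1.71. Of 4 neuroectoderm genes tested ZIC2, SIX3 and OTX2 fell. In the amnion list 1 of 5 genes, KRT7, rose by 2.27. Of 6 metallothionein genes MT1E rose by 1.95. Over all genes tested, 6.19% rose and 4.29% fell.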
